A study of Homo sapiens with 8 samples.

Results

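The regions described here are the ATF4 binding regions of untreated Nalm6 cells that were no longer listed after L-asparaginase. They were chosen by presence in the deposited peak lists: peaks of the 4 Nalm6 lists that share at least 1 bp were merged, and a region was kept as lost when both untreated lists and neither asparaginase list held a peak in it. The rule found 694 lost regions among 57175 Nalm6 regions, 1.21% of them, and among 27612 regions listed in both untreated libraries, 2.51%. Merging the peaks of all 8 lists of the series gave 132657 regions. "Lost" means here that the peak caller listed no peak; signal below its threshold can remain.

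The series is chromatin immunoprecipitation followed by sequencing with a rabbit monoclonal antibody against ATF4, in 2 established human lines of acute lymphoblastic leukaemia, Nalm6 and SUPB15. The 4 groups, with 2 libraries each, were Nalm6 with L-asparaginase (1 IU/ml, 2 h), untreated Nalm6, SUPB15 with L-asparaginase (1 IU/ml, 2 h) and untreated SUPB15. The labels name no genetic change made to the cells. The design text speaks of independent experiments for Nalm6, and an experiment per condition beyond the 2 libraries was not analysed here. No source used here says whether the SUPB15 libraries came from separate cultures, so the spread between them may be technical. The p-values rest on rearranging these 4 libraries or flipping their signs, and do not measure variation between cultures. The sign-flip tests over libraries take asparaginase and untreated libraries together.

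L-asparaginase is a leukaemia drug that breaks down asparagine. When amino acids run short, uncharged transfer RNA activates a kinase that slows general translation while the messenger RNA of ATF4 is translated more, and ATF4 then binds DNA as a dimer with other leucine zipper proteins, often of the C/EBP family, at genes for amino acid synthesis and transport. The 694 lost regions stood beside 7040 gained regions, which both asparaginase lists and no untreated list held. Positions are in hg19. Regions are given by position without gene names, because no hg19 annotation was used here.

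The untreated lists were the shorter ones and the untreated libraries, by genome background, the deeper ones. The asparaginase lists of Nalm6 held 43376 and 48984 peaks, against 34825 and 36801 in the untreated lists. The genome background, here the lowest background of a list in fragments per position, served as relative depth and was 2.21 and 2.33 with asparaginase and 2.97 and 2.79 without. A peak of a given strength over background therefore rested on fewer fragments in the asparaginase libraries, which raises the strength needed for listing. Asparaginase peaks began at 4.08 and 3.86 times the genome background, untreated peaks at 3.37 and 3.59 times. The part of depth in the losses was not tested.

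The lost regions were weak in the untreated cells. Fold enrichment, the peak caller's ratio of fragments to local background at the summit, had a median of 3.62 in untreated replicate 1 and 3.63 in replicate 2, with ranges of 2.02 to 6.55 and 1.97 to 7.14. Their summits held a median of 18 fragments in each untreated library. Ranked by p-value within their own list, they stood at a median percentile of 20.9 in replicate 1 and 20.1 in replicate 2, where 100 is the strongest peak. The rule used these same peaks, so the values describe the lost regions and carry no test.

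**Figure D1:**
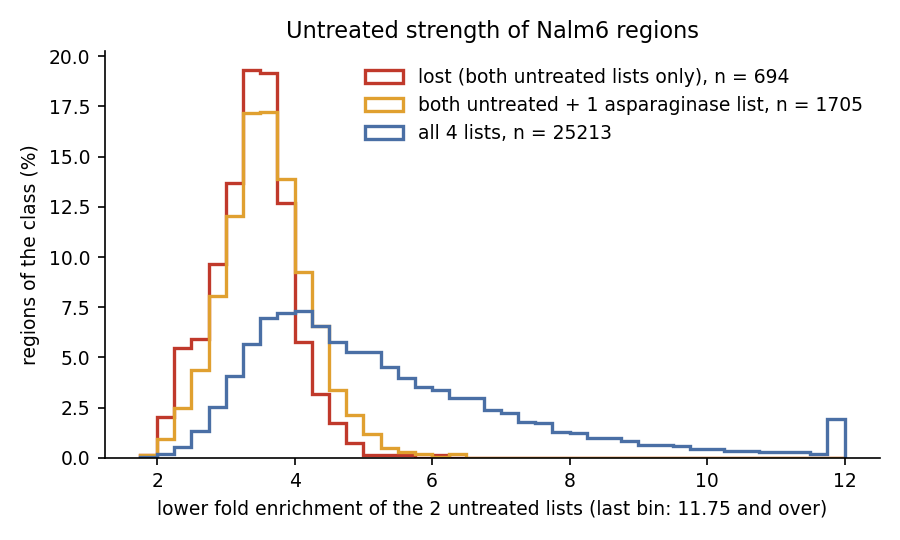
Distribution of the lower of the 2 untreated fold enrichments, with the share of each class of Nalm6 regions on the vertical axis. The lost regions and the regions kept in 1 asparaginase list pile up between about 3 and 4, and the regions in all 4 lists reach far higher.

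The lower of the 2 untreated enrichments had a median of 3.42 at the lost regions, 3.53 at the 1705 regions that kept a peak in 1 asparaginase list, and 4.82 at the 25213 regions in all 4 lists. Median widths were 397.5, 514 and 890 bp, and a region merged from more lists is wider by construction. Single untreated peaks were narrow as well, with a median of 276 and 280.5 bp at the lost regions against 623 and 655 bp at the regions in all 4 lists. The summits of the 2 untreated libraries lay within 100 bp of each other at 374 lost regions, 53.9%, against 66.9% of the regions in all 4 lists. Strength varied little among the lost regions: the 5th percentile of the lower enrichment was 2.41 and the 95th was 4.28.

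The share of regions that were lost declined with untreated strength. Among regions in both untreated lists, it was 17.4% (152 of 872) where the lower −log10 q was under 3 and 8.22% (407 of 4951) from 3 to 5. It was 2.76% (113 of 4091) from 5 to 7 and 0.440% (18 of 4088) from 7 to 10. Of the 13610 regions with a lower −log10 q of 10 and over, 4 were lost. These bands were drawn after the data had been seen.

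Just outside the rule stood the regions with a single asparaginase peak. Their one listed asparaginase peak had a median −log10 q of 5.22, and in 752 of 1705 it was under 5. Just inside, the weakest lost region lay at chr1:41847674-41848110, with untreated enrichments of 2.02 and 1.97. Merged anew without a library, the lost class held 1182 regions without asparaginase replicate 1, 1964 without asparaginase replicate 2, 3619 without untreated replicate 1 and 3205 without untreated replicate 2.

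The number and strength of the lost regions were close to those of regions that mixed pairs of Nalm6 libraries had to themselves. Pairs made of 1 asparaginase and 1 untreated library had 404, 580, 795 and 1115 regions to themselves, and the 694 lost regions fall within that range. The median of the lower enrichment was 3.53 to 3.59 in these mixed pairs and 3.42 in the lost class. In a mixed pair the lower value can come from an asparaginase list. Those peaks began at 4.08 and 3.86 times the genome background, untreated ones at 3.37 and 3.59, so these medians stand at unlike listing thresholds. A −log10 q of 10 in both lists was reached by 4 lost regions and by 0 to 1 region of a mixed pair. These counts carry no test.

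How much lower ATF4 signal must have been with asparaginase can be estimated from the calling threshold. For each lost region the local background was scaled to the depth of each asparaginase library, and the highest pileup that stays under the weakest listed p-value of that list was computed. Each pileup was divided by the genome background of its library, and the higher value of both libraries was taken as the highest unlisted level. It had a median of 0.777 of the lower untreated level, with a range of 0.43 to 1.06. At the median lost region an untreated level 1.29 times the asparaginase level is therefore enough to leave the list with the higher limit. The other list can require more. At 8 of the 694 lost regions the asparaginase level in the library with the higher limit could have equalled the untreated one.

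**Figure D2:**
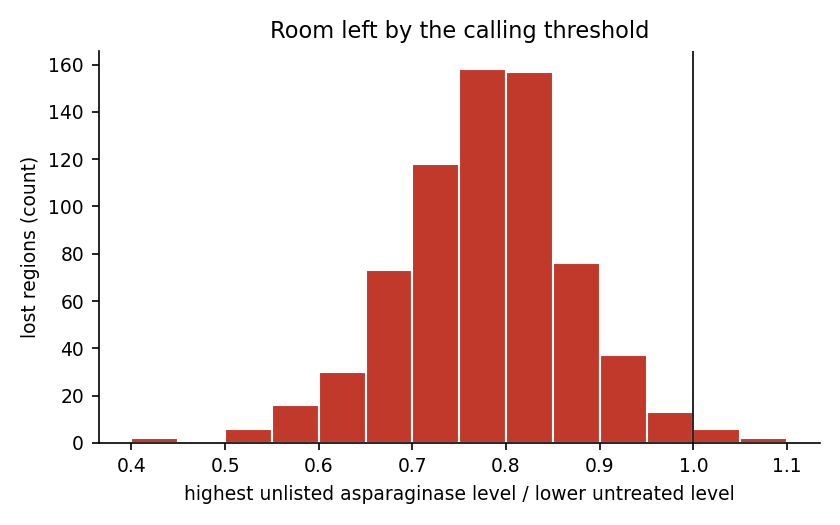
Histogram of the lost regions by the highest asparaginase level that would stay unlisted, divided by the lower untreated level. Both are pileup over genome background, and the higher limit of both asparaginase libraries was used. Most lost regions lie between 0.6 and 1.0, and 2 lie under 0.5.

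By this higher limit, a difference of more than 1.5-fold was required at 60 lost regions, 8.65%, and of more than 2-fold at 2. At 659 lost regions, 94.96%, the highest unlisted level lay within or above the exact 95% Poisson interval of the pileup in at least 1 untreated library, which covers counting error only. At 35 lost regions it lay below the intervals of both. The same limit lay within or above such an interval at 88.4% of the regions with 1 asparaginase peak. A high share was therefore not particular to the lost regions. At the regions in every Nalm6 list the share was 27.9%. More than 1.5-fold would have been required at 19.1% of the regions with 1 asparaginase peak and at 76.0% of those in every list. The estimate takes local background to change with depth alone. It also leaves aside the minimum width of a peak, so a tall but narrow pileup could stay unlisted.

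The clearest losses were few. The largest required difference was at chr1:15004606-15005213. Its untreated summits held 57 and 53 fragments, with enrichments of 5.21 and 4.65 and −log10 q of 21.0 and 17.3. A pileup of up to 18 fragments would have stayed unlisted in either asparaginase library, so the untreated level was an estimated 2.33 times the highest unlisted level. No SUPB15 library listed a peak there.

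The lost region with the highest enrichment lay at chr5:49436957-49437310. Its untreated summits held 27 and 31 fragments, with enrichments of 6.11 and 7.02, and up to 9 fragments would have stayed unlisted with asparaginase. This is the other region that required more than a 2-fold difference, of 2.23. In SUPB15 it was listed in every library, at enrichments of 5.59 and 6.78 with asparaginase and 6.95 and 6.15 without.

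A pair of further lost regions had a −log10 q of at least 10 in both untreated lists. At chr16:3070256-3070600 the untreated summits held 34 and 39 fragments, with enrichments of 4.99 and 4.89, and at chr10:129985731-129986123 they held 34 and 35 fragments, with enrichments of 4.42 and 4.64. The region on chromosome 16 required a difference of 1.94-fold. Neither had a SUPB15 peak.

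The remaining regions among the 10 of highest lower enrichment lay on 8 chromosomes. At chr14:77647870-77648863 the untreated enrichments were 5.53 and 7.14, and those at chr6:25070905-25071342 were 5.29 and 5.81. At chr3:197381082-197381321 they were 5.91 and 5.12, and those at chr10:93471897-93472427 were 4.91 and 5.25. Untreated replicate 2 was higher in 3 of these 4 regions. The others lay at chr16:22012308-22012746, chr7:63125960-63126231, chr11:34195961-34196218 and chr2:92307892-92308116, with lower enrichments of 4.71 to 4.78. Required differences over these 8 regions were 1.67-fold to 1.90-fold.

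**Figure D3:**
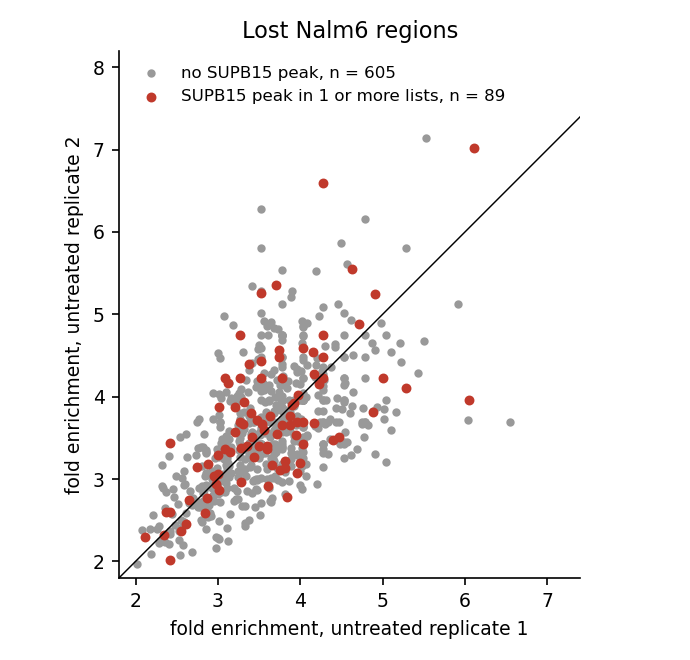
Fold enrichment of each lost region in untreated replicate 1 (horizontal) and untreated replicate 2 (vertical), with the line of equal values. Red points are the 89 lost regions with a peak in at least 1 SUPB15 list, and they are spread over the whole range of strength.

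Some lost regions held many fragments on a raised local background. At chr14:69262051-69262783 the untreated summits held 64 and 71 fragments, yet enrichments were 2.26 and 2.39, because the local background was 9.90 times the genome background. At chr6:143268058-143268846 both untreated libraries held 63 fragments at enrichments of 2.34 and 2.32. Regions at chr10:104402079-104402458 and at chr4:100867507-100868131 held 50 to 52 fragments. At these 4 regions the required difference was 1.24-fold to 1.30-fold. The widest lost regions were the one on chromosome 14 of 994 bp named above, one at chr12:54144537-54145554 of 1018 bp and one at chr1:155058109-155058976 of 868 bp.

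In SUPB15, whose lists the rule did not use, most lost regions had no peak. A peak in at least 1 of the 4 SUPB15 lists was found at 89 of the 694 lost regions, 12.8% (exact 95% binomial interval 10.4 to 15.5, counting error over regions only), against 43.3% of all Nalm6 regions. Regions with 1 asparaginase peak stood at 19.6% (17.7 to 21.6) and regions in all 4 Nalm6 lists at 62.4% (61.8 to 63.0). Regions that a mixed pair of Nalm6 libraries had to itself stood at 13.9% to 16.0%, with intervals that overlap that of the lost regions. SUPB15 asparaginase replicate 1, whose list of 88302 peaks is the longest of the series, carried much of this: without it 5.19% of the lost regions had a SUPB15 peak.

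By library, 71 and 30 lost regions were listed in the asparaginase replicates of SUPB15, 10.2% and 4.32%, and 11 and 13 in the untreated replicates, 1.59% and 1.87%. Over all Nalm6 regions the listed shares were 40.9% and 28.3% with asparaginase and 12.7% and 10.7% without. In each library the share of the lost regions was below that of Nalm6 regions at large. It was 0.171 and 0.101 times that of the regions in all 4 Nalm6 lists in the asparaginase libraries and 0.0660 and 0.0884 times in the untreated libraries. The lost regions were lower in 4 of 4 libraries (exact two-sided sign-flip permutation test over libraries, p = 0.125, the smallest that 4 libraries allow). The regions in all 4 lists were stronger, with a median lower enrichment of 4.82 against 3.42. They were also wider, with a median of 890 bp against 397.5 bp. This test takes neither into account, so it cannot separate loss from strength or width. Against the regions with 1 asparaginase peak the share was lower in 3 of 4 libraries (exact two-sided sign-flip permutation test, p = 0.25).

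**Figure D4:**
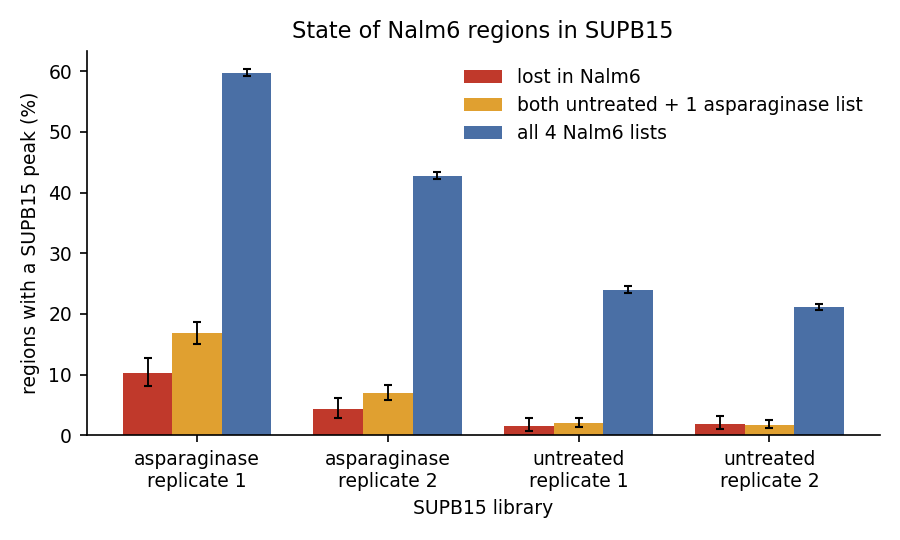
Share of Nalm6 regions with a peak in each SUPB15 library, for lost regions, regions with 1 asparaginase peak and regions in all 4 Nalm6 lists; error bars are exact 95% binomial intervals. The lost regions stand at 10.2%, 4.32%, 1.59% and 1.87% from left to right, far below the regions in all 4 lists.

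The low share in SUPB15 was also seen at matched strength. Where the lower untreated −log10 q in Nalm6 was 3 to 5, a SUPB15 peak was found at 12.04% of the 407 lost regions (9.04 to 15.6) and at 33.0% of the 3551 regions in all 4 lists (31.5 to 34.6). Regions of that band with 1 asparaginase peak stood between them, at 16.4% (14.2 to 18.9). In this band 9.58% and 3.69% of the lost regions were listed in the SUPB15 asparaginase libraries and 0.983% and 1.47% in the untreated ones. Regions in all 4 lists stood at 30.3% and 18.1% with asparaginase and 4.65% and 3.94% without. The lost regions were again lower in 4 of 4 libraries, by a mean of 1.90 on the log2 scale (exact two-sided sign-flip permutation test, p = 0.125, the smallest possible). From 5 to 7 the shares were 15.9% of 113 lost regions (9.72 to 24.0) and 39.5% of 3621 regions (37.9 to 41.1). Under 3 they were 11.2% of 152 (6.65 to 17.3) and 28.8% of 514 (24.9 to 32.9). Even within a band, the regions in all 4 lists can be somewhat stronger, and they are wider, which gives a SUPB15 peak more room to overlap.

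**Figure D5:**
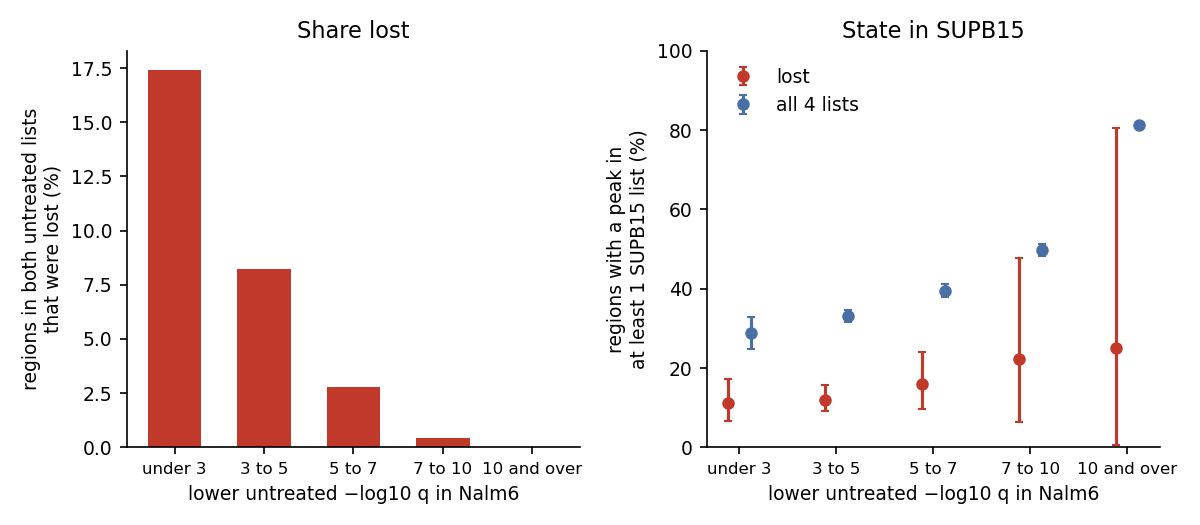
Left, share of the regions in both untreated Nalm6 lists that were lost, by band of the lower untreated −log10 q. Right, share with a peak in at least 1 SUPB15 list for lost regions and regions in all 4 lists of the same band, with exact 95% binomial intervals; lost regions are lower in every band, and the intervals separate in the 3 weaker bands and in the band from 7 to 10.

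In SUPB15 the regions lost in Nalm6 had more listed peaks with asparaginase than without. The numbers of 71 and 30 with asparaginase against 11 and 13 without, each plus 1, gave a ratio of geometric means of 3.64 (log2 1.87, p = 0.3333 by an exact permutation test, two-sided, which is the lowest that 2 against 2 libraries allow). Both asparaginase libraries stood above both untreated ones. The same ratio was 2.92 over all Nalm6 regions and 2.24 over the regions in all 4 lists. At the regions with 1 asparaginase peak it was 5.59, higher than at the lost regions, so a raised ratio was not particular to them. The SUPB15 asparaginase lists held 88302 and 41213 peaks against 9575 and 9586 in the untreated lists. Relative to the regions in all 4 lists the excess of the lost regions was 0.78 as a log2 difference (p = 0.3333, exact permutation test). With a −log10 q of at least 10 in every list the first ratio was 0.42 on the log2 scale, with a reciprocal overlap of 50% it was 1.07 and with summits within 200 bp 1.00. The excess over the regions in all 4 lists changed direction under these rules: it was -0.83 with a −log10 q of at least 10 in every list, -0.54 with a reciprocal overlap of 50% and -0.027 with summits within 200 bp. Without SUPB15 asparaginase replicate 1 the first ratio was 1.26 on the log2 scale and the excess 0.40, and without replicate 2 they were 2.47 and 1.16. Without Nalm6 untreated replicate 1 they were 2.43 and 1.25, without untreated replicate 2 they were 2.43 and 1.27, and without Nalm6 asparaginase replicate 2 they were 2.35 and 1.22. In all, 8 permutation tests were computed on SUPB15 listing, and each had a Benjamini-Hochberg adjusted p of 0.3333.

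Patterns over the 4 SUPB15 libraries were dominated by single lists. A peak in asparaginase replicate 1 alone was found at 53 lost regions and in replicate 2 alone at 12. A peak in both asparaginase replicates and no untreated one was found at 9 lost regions, 1.30%, against 12.9% of all Nalm6 regions. All 4 lists held a peak at 7 lost regions, 1.01%, against 7.54% of all Nalm6 regions. Where listed, the lost regions had a median enrichment of 3.03 and 3.41 in the asparaginase libraries and 3.95 and 3.62 in the untreated ones, and the median peak of those whole lists had 3.47 and 3.65 with asparaginase and 3.75 and 3.72 without. The SUPB15 summit lay within 200 bp of a Nalm6 summit at 56 of 71 and 25 of 30 listed regions with asparaginase, and at 10 of 11 and 12 of 13 without.

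A single lost region was lost in both lines. It lies at chr1:208067577-208067987 and was picked out for this pattern after its values were seen. In Nalm6 its untreated summits held 43 and 41 fragments, with enrichments of 3.503 and 3.40 and −log10 q of 9.73 and 8.90. In SUPB15 the untreated enrichments were 5.55 and 3.65, with −log10 q of 26.3 and 8.80, and neither asparaginase list held a peak. In Nalm6 the lower untreated level was an estimated 1.68 times the highest unlisted asparaginase level, and the nearest asparaginase peak of Nalm6 lay 3388 bp away. Among all Nalm6 regions, 11 were listed in both untreated SUPB15 lists and neither asparaginase list, 0.0192%.

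The 7 lost regions listed in all 4 SUPB15 libraries included the one on chromosome 5. At chr16:33240981-33241220 the enrichments in SUPB15 were 6.78 and 7.82 with asparaginase and 7.67 and 7.55 without, whereas in untreated Nalm6 they were 3.27 and 3.69. At chr8:58118295-58118582 they were 4.57 and 4.31 with asparaginase and 4.36 and 4.55 without, and in untreated Nalm6 6.04 and 3.96. At both positions the 4 SUPB15 libraries were near each other, with no separation by treatment. The region at chr12:34846272-34846505 had 4.24 and 4.42 with asparaginase and 5.75 and 5.26 without in SUPB15. The remaining 3 lay at chrY:13458422-13458626, chr10:127584504-127584765 and chr1:142535971-142536741. SUPB15 enrichments on chromosome Y were 2.84 and 3.24 with asparaginase and 3.95 and 3.57 without. On chromosome 10 they were 3.96 and 3.19 with asparaginase and 2.23 and 2.63 without. On chromosome 1 they were 2.50 and 2.50 with asparaginase and 2.99 and 2.70 without. On chromosomes 12, Y and 1 both untreated values were above both asparaginase values, and on chromosome 10 both were below.

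Some of these regions border a stretch without peaks. On chromosomes 1, 2, 5 and 12 the longest stretch with no peak in any of the 8 lists spans the assembly gap at the centromere. The lost region on chromosome 1 lay 464 bp from that stretch, the one on chromosome 12 lay 607 bp and the one on chromosome 5 lay 31240 bp from it. A pair of lost regions on chromosome 2, from 92307892 to 92308116 and from 92309002 to 92309262, lay 15581 and 14435 bp from it. In total, 11 lost regions, 1.59% (0.794 to 2.82), lay within 1 Mb of the longest stretch of their chromosome, against 1.04% of all Nalm6 regions. This count takes the longest stretch wherever it lies, as on chromosome 15 from 96586444 to 98288742. It is no measure of nearness to centromeres. Of these 11, 6 had a SUPB15 peak, 54.5%, compared with 83 of the other 683 lost regions, 12.2%. The same split over all Nalm6 regions gave 58.3% near such a stretch and 43.1% elsewhere, and over the regions in all 4 lists 80.2% and 62.3%. This split was made after the data had been seen. Without these 11 the SUPB15 ratio of asparaginase over untreated was 2.22 on the log2 scale and the excess over the regions in all 4 lists 1.19.

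Lost regions often lay beside asparaginase peaks that they did not touch. The nearest asparaginase peak of Nalm6 was at a median distance of 3.38 kb from the edges of a lost region, within 200 bp at 95 lost regions and within 1 kb at 217, 31.3%. Regions listed in a single untreated library and no other showed a like share, 29.1% within 1 kb. Gained regions lay farther from untreated peaks, with 9.63% within 1 kb. The untreated lists are shorter, and the part of list length in this difference was not tested. A gained region lay within 1 kb of 18 lost regions, 2.59%, and the median distance was 81.6 kb. A region in all 4 Nalm6 lists lay within 1 kb of 128 lost regions, 18.4%, at a median distance of 10.0 kb. There were 7040 gained regions and 25213 regions in all 4 lists. The same distances were not computed from all Nalm6 regions, so whether they are particular to the lost regions was not tested.

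The 217 lost regions within 1 kb of an asparaginase peak had a higher local background, a median of 1.91 times the genome background, against 1.18 times at the 477 farther ones. Their lower untreated enrichment had a median of 3.13, against 3.53 at the farther ones. A SUPB15 peak was found at 18.4% of the near lost regions (40 of 217) and 10.3% of the far ones (49 of 477). The same split was not made over all Nalm6 regions, so whether it is particular to the lost regions was not tested.

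The lost regions were spread over all 24 chromosomes. The share of regions in both untreated lists that were lost was highest among the autosomes on chromosome 12, at 3.37% (48 of 1425, 2.49 to 4.44), and lowest on chromosome 4, at 1.63% (17 of 1045, 0.950 to 2.59). The exact 95% binomial intervals of all 24 chromosomes contain the share over the genome, 2.51%. Neighbouring lost regions on a chromosome lay a median of 1.83 Mb apart. Of the 670 neighbouring pairs, 51 lay within 100 kb and 7 within 10 kb.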

How the data were processed

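The 8 ATF4 peak lists were grouped by the cell line, treatment and replicate number in the sample titles. Per the submitters' processing notes, the tools were BWA, MACS2 and DiffBind and the build hg19; the sources used here give no versions or options. There is 1 list per library. As deposited, each peak carries a fold enrichment at the summit, a ratio to local background, and −log10 p and −log10 q values; the deposited display score was not used. Since fold is (pileup + 1) / (background + 1) and p is Poisson, both were solved for the whole-number pileup and local background, and a solution was found for 100% of peaks in each list, to within 0.001 in −log10 p. Read totals are not in the lists, so the lowest background of a list served as its relative depth.

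Merging, class rules, distances and the inversion were tested on simulated data (Python 3.11.15, SciPy 1.17.1, pandas 2.3.3). Regions named were the 10 of highest lower untreated enrichment, the 5 in most SUPB15 lists, all with −log10 q of at least 10 in both untreated lists, the 5 of highest lower pileup and the 3 widest; others are marked as picked afterwards or stand with their group. Regions, lists and rules were chosen with earlier results of these data known. Distances to gene starts and motifs were planned and not computed, since no hg19 sequence or annotation was used here. Alternatives were stricter q, equal list lengths, other overlaps, left-out libraries and a replicate block. Intervals are exact 95% binomial ones and cover counting error only.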

Additional observations from a re-analysis of the deposited data

Results flagged for a closer look

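In SUPB15 both asparaginase libraries listed more of the lost regions than both untreated libraries, by 1.87 on the log2 scale of number plus 1, whereas in Nalm6 the asparaginase lists lack them by the rule that chose them. The opposite signs follow from that rule for any set listed more often with asparaginase in SUPB15. Over all Nalm6 regions the same SUPB15 value was 1.55, and over the regions with 1 Nalm6 asparaginase peak it was 2.48. The SUPB15 lists held 88302 and 41213 peaks with asparaginase against 9575 and 9586 without. The difference between the lines was not tested.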

How the results depend on the processing

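The number of lost regions, 694, moved most. It was 450 and 407 with −log10 q of at least 5 and 10 in every list, 135 with at least 5 in the untreated lists alone, 2125 with equal list lengths, 1297 with 50% reciprocal overlap, 1501 with summits within 200 bp, and 1182 to 3619 without single Nalm6 libraries. Stricter untreated lists and left-out libraries change the count by construction. Equal list lengths cut the asparaginase lists of Nalm6 to the 34825 peaks of the shortest list. The reciprocal-overlap and summit rules can count a region as lost although an asparaginase peak touches it. How far these changes account for the shifts was not tested, nor was the cause of the others. In the same order of the first 6 settings, the share with a SUPB15 peak was 8%, 5.16%, 17.0%, 17.9%, 24.2% and 28.5%. It was 10.3% where no asparaginase peak lay within 1 kb and 5.19% to 17.3% without single libraries. The median lower enrichment was 4.03, 5.00 and 3.83 under the 3 q settings, and moved by less than the spread between replicates (0.279) otherwise. The share within 1 kb of an asparaginase peak was 23.1%, 11.5%, 26.7%, 19.5%, 75.6% and 72.4% in that order, and 24.8% to 33.7% without single libraries. The 75.6% and 72.4% include regions that an asparaginase peak touches, which the main share cannot, so they are not the same measure.

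The SUPB15 ratio kept its direction in all 18 alternatives, within 0.42 to 2.51, and at 1.26 to 2.47 on the log2 scale without single libraries. It was 0.42 with −log10 q of at least 10 in every list, 1.07 with reciprocal overlap, 1.00 with summits within 200 bp, and 2.51 with equal list lengths. The excess over regions in all 4 lists reversed in 3 of 18, to -0.83 (−log10 q of at least 10), -0.54 (reciprocal overlap) and -0.027 (summits), and was 0.40 to 1.27 without single libraries; the cause was not tested. No p can pass 0.05 here, so p says nothing about stability. With a replicate block the values were again 1.87 and 0.78, with p = 0.5 (exact sign-flip permutation test), the smallest that 2 pairs allow. Differences between replicates 1 and 2 correlated at 0.032 between treatments in Nalm6 and at 0.082 in SUPB15, over regions in all 4 lists of a line, and nothing in the labels pairs the numbers.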
